A study of Mus musculus with 8 samples.

Results

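Mirtrons and other miRNAs that bypass DROSHA were followed here through 6 mouse genes: Mir320, Mir484, Mir877, Mir1224, Mir702 and Mir1981. They were chosen by name, with earlier results of these data known. Exact mm10 coordinates matched them to 6 of the 2202 miRNA features counted in the study. The study sequenced small RNA of spleen B cells from Ago2HA/HA mice, in which AGO2 carries an HA epitope, as total small RNA (input) and after anti-HA immunoprecipitation of AGO2 (IP). B cells were taken by negative selection against CD43, either resting or activated in culture to proliferate, which gives 4 groups of 2 libraries: resting input, resting IP, proliferating input and proliferating IP. All 4 groups share the genotype, and cells of animals without the epitope yielded no RNA in the IP and therefore no library, per the labels. The labels name neither the activating agent nor the time in culture, nor whether the replicates were separate mice, so the p-values measure the spread between these libraries, which may be technical.

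A canonical miRNA hairpin is cut out of its primary transcript by DROSHA and DGCR8, and DICER then releases the duplex that is loaded into an Argonaute protein such as AGO2. A mirtron skips the first cut: the splicing machinery excises a short intron that, once debranched, is itself the hairpin, so its ends are those of an intron, GU at the 5′ end and AG at the 3′ end. Mir877, Mir1224, Mir702 and Mir1981 are known as mirtrons or mirtron-like hairpins. Mir320 and Mir484 are known for another route, in which transcription begins at the base of the hairpin and the capped short RNA goes straight to export and DICER. Since these genes still need DICER and an Argonaute, their presence with AGO2 can be read beside that of miRNAs that depend on DROSHA.

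The hairpins are shown because their ends and arms set this class apart. RefSeq (GRCm38.p6) gave sequences for 5 of the 6 genes. The hairpins below run 5′ to 3′, with capitals for a GU at the first bases together with an AG at the last, or, in Mir702, for the letters GUGAGU. All are written on the strand of the gene.
Mir877: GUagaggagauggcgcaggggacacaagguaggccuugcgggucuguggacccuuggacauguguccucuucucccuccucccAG
Mir1224: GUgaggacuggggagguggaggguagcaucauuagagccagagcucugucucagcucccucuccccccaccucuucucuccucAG
Mir1981: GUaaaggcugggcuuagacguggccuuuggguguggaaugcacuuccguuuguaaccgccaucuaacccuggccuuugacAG
Mir702: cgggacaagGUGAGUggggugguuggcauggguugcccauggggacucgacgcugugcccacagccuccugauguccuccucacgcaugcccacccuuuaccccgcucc
Mir484: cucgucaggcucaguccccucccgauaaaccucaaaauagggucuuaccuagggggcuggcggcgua

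Mir877, Mir1224 and Mir1981 began with GU and ended with AG over the whole annotated hairpin. Of 1005 mouse hairpins in the same table, 77 began with GU (7.66%), 238 ended with AG (23.7%) and 30 did both (2.99%). The annotated Mir702 hairpin has neither end, and GUGAGU, the letters of a typical 5′ splice site, begins at its base 10, where its 5p arm starts. GUGAGU was found in 39 of the 1005 hairpins (3.88%), searched on the hairpin strand alone. Mir484 has neither end nor GUGAGU. The ends are not proof of a mirtron, because Mir20a of the miR-17 cluster and Mir194-2 have them too. Of the 30 hairpins with both ends, 16 had a count in these libraries (53.3%), against 448 of 964 hairpins with a feature (46.5%). Only Mir877, Mir1981, Mir20a and Mir194-2 of the 30 had enough counts to be tested, and the 12 others that were counted had at most 31 counts in all libraries together, the highest being Mir1982, another mirtron.

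The mature arms are shown because the seed, bases 2 to 8 in capitals, is what pairs with target mRNAs, and because the 3p arms of mirtrons carry the pyrimidine-rich end of the intron.
miR-484: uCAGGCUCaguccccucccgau
miR-877-5p: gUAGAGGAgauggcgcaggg
miR-877-3p: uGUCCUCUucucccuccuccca
miR-1224-5p: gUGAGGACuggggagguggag
miR-1224-3p: cCCCACCUcuucucuccucag
miR-702-5p: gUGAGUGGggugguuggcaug
miR-702-3p: uGCCCACCcuuuaccccgcucc
miR-1981-5p: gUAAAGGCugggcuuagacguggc
miR-1981-3p: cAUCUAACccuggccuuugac

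No seed was shared between these arms, and among all 1679 mature sequences of the table only that of miR-702-5p occurred elsewhere, in miR-3102-5p. The 5p arms of miR-877, miR-1224 and miR-1981 started at base 1 of the hairpin, that is, at the first base of the GU. The miR-877-3p arm consisted of C and U for 90.9% of its bases, a share that 0.119% of all mature sequences reach. The values were 85.7% for miR-1224-3p, 81.8% for miR-702-3p and 66.7% for miR-1981-3p, against a median of 50% over all mature sequences. Of all mature sequences, 1.37%, 2.50% and 18.2% reach these values, so that of miR-1981-3p is not rare. It lies under that of miR-484, which is known for the capped route and had 68.2%. GC content was highest in the Mir702 hairpin, at 65.1%, and lowest in that of Mir1981, at 53.7%, with a median of 51.7% over the 1005 hairpins. The predicted folding energy per base ran from -0.504 kcal/mol for Mir1224 to -0.367 kcal/mol for Mir484, around the median of -0.406 kcal/mol. Since the tables count a hairpin once for both arms, the arms cannot be separated in the values that follow.

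**Figure D1:**
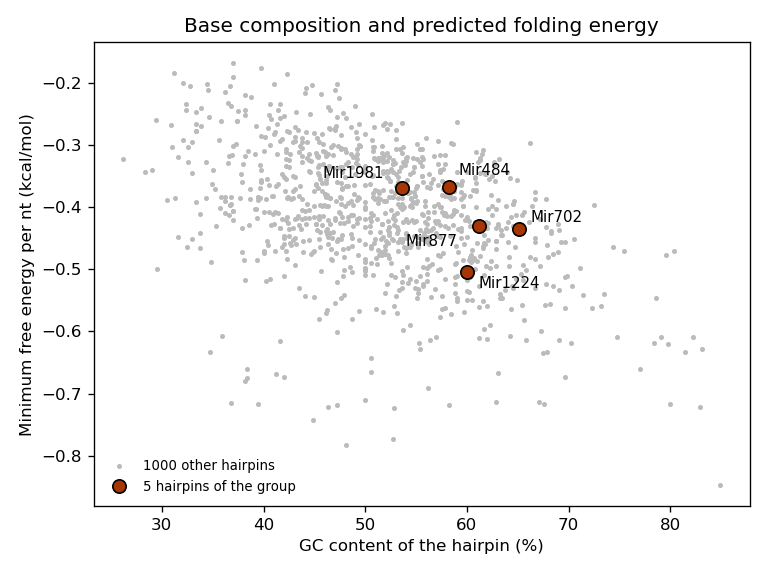
Each point is 1 mouse hairpin of the RefSeq table, placed by its GC content (%) and by its predicted minimum free energy per nucleotide (kcal/mol), with the 5 hairpins of the group in colour. All 5 lie to the right of the median GC content of 51.7%, while their folding energies lie on both sides of the median of -0.406 kcal/mol.

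The genes lie at 6 separate places in the genome (mm10 coordinates), and none overlaps another counted feature. Mir1981 (ENSMUSG00000088559.1, chromosome 1, 184822407 to 184822488, minus strand) lies within Mtarc2, a mitochondrial molybdenum enzyme gene. Mir877 (ENSMUSG00000077931.1, chromosome 17, 35960730 to 35960814, minus strand) lies within Abcf1, whose product acts in translation initiation. Mir702 (ENSMUSG00000076240.1, chromosome 5, 136991433 to 136991541, plus strand) lies within Plod3, a lysyl hydroxylase gene, and Mir1224 (ENSMUSG00000080669.1, chromosome 16, 20604452 to 20604536, plus strand) within Vwa5b2. Each of these 4 is on the strand of its host gene, and exons and introns were not distinguished here. Mir320 (ENSMUSG00000065528.1, chromosome 14, 70443510 to 70443591, plus strand) overlaps no other RefSeq gene and begins 39 nt beyond the end of the span of Polr3d, an RNA polymerase III subunit gene. Mir484 (ENSMUSG00000070074.1, chromosome 16, 14159626 to 14159692, plus strand) lies between Marf1, 348 nt away, and Nde1, 3583 nt away.

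Library totals were between 213418 and 1681148 counts, and 219 features passed the count filter for testing, 5 of the 6 genes among them. Mir150, typical of resting lymphocytes, and Mir155, typical of activated ones, were present in every library, and Mir142, a marker of all blood cells, had no count in any. The marker miRNAs of 6 other cell types (Mir223, Mir144, Mir126a, Mir122, Mir200b and Mir10b, for myeloid, erythroid, endothelial, hepatic, epithelial and stromal cells) all had counts in every library, and their summed level ran from 11948 to 31904 CPM (counts scaled to library size with TMM factors) in the 4 resting libraries and from 1907 to 3343 CPM in the 4 proliferating ones. Myeloid Mir223 made up most of that sum in the resting libraries, and not all of these markers followed it. Endothelial Mir126a ran from 76.9 to 241 CPM in the resting libraries and from 489 to 2048 CPM in the proliferating ones. Hepatic Mir122 was at 8.40 and 9.83 CPM in the resting inputs against 62.1 and 45.6 CPM in the proliferating inputs. In the IPs Mir122 went the other way, at 35.1 and 37.5 CPM in resting against 14.6 and 5.94 CPM in proliferating cells. In such bulk samples fewer cells of a type and less RNA per cell cannot be told apart. Cell state also coincides with the deposited table, since resting and proliferating libraries stand in separate tables. Scaling moved the median of all tested features: the resting over proliferating difference in the IP had a median of -0.21 on the log2 scale with TMM factors, -0.22 with library totals and 0.45 with upper-quartile factors, and in the input the medians were -0.04, -0.40 and 0.31. The split of calls moved with it, from 51 higher and 57 lower to 37 and 75 with library totals and 59 and 39 with upper-quartile factors in the input, and from 52 higher and 62 lower to 75 and 38 with upper-quartile factors in the IP.

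All 6 genes together took a small part of each library. Their summed share of all counts was 0.0429% and 0.0525% for resting input, 0.0572% and 0.0549% for resting IP, 0.0937% and 0.101% for proliferating input, and 0.0473% and 0.0574% for proliferating IP. The 2 proliferating inputs thus stood above the other 6 libraries in these shares, which are of raw totals. The TMM factors were 1.28 and 1.34 in the proliferating inputs and from 0.797 to 1.05 in the other 6 libraries. They were not applied to the shares, and the gap is narrower on the TMM scale used for the levels below. Mir1981 was the most abundant of them in every group and Mir1224 was counted in none. Per 100 nt of feature length, Mir1981 stood at 408 ± 11.9 CPM in the resting input (mean ± SD, n = 2 here and below), 585 ± 116 in the resting IP, 612 ± 12.7 in the proliferating input and 430 ± 44.9 in the proliferating IP. The next genes in that order were Mir320 and then Mir877 in the resting groups, at 96.2 ± 25.0 and 38.2 ± 40.0 CPM per 100 nt in the input, with the libraries of these genes apart. In the proliferating groups the order of the pair was turned, at 133 ± 65.5 CPM per 100 nt for Mir877 and 122 ± 69.9 for Mir320 in the input, where their libraries overlapped, as they did in the IP. Mir484 and Mir702 were at 34.2 CPM per 100 nt or less in every group, and their libraries overlapped in both IPs. By rank of mean CPM, Mir1981 was at place 65 of the 423 features with a count in the resting IP, and Mir320 was at place 98.

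**Figure D2:**
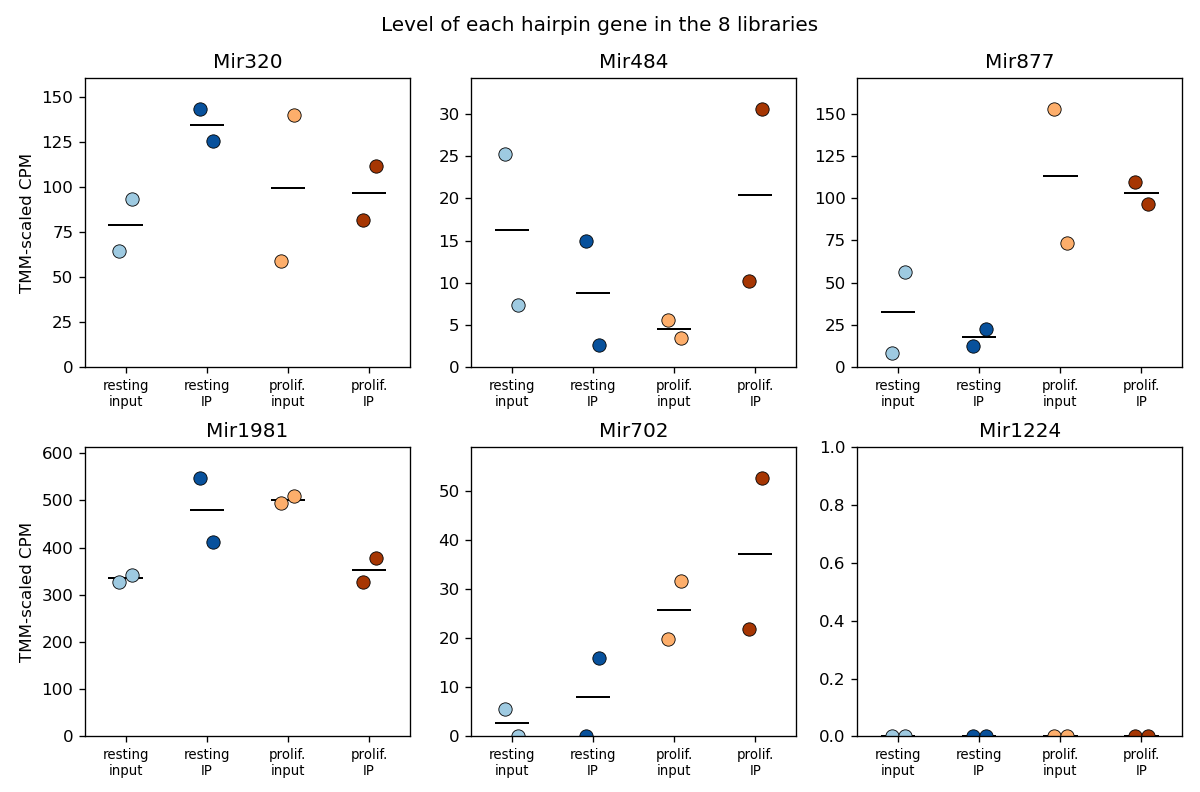
Each panel shows 1 gene, with the TMM-scaled CPM of the 8 libraries as points on a linear axis from 0 and a bar at the mean of each group of 2 (prolif. is proliferating). Mir877 is higher in all 4 proliferating libraries (73.7 CPM or more) than in all 4 resting ones (56.5 CPM or less). How common a gap between 4 libraries and 4 is among the tested features was not computed. With 2 libraries against 2, resting and proliferating inputs lay apart for 78.5% of these features, and the IPs for 74.9%. Mir1981 is high in the resting IP and the proliferating input, and Mir1224 is at 0 throughout.

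Mir877 was lower in resting than in proliferating cells among the RNA bound to AGO2. It had 17 and 17 counts in the resting IPs, against 75 and 114 in the proliferating IPs. The levels were 12.7 and 22.8 CPM in the resting IPs, against 109.8 and 96.7 CPM in the proliferating IPs. Both resting libraries lay below both proliferating ones, and the mean was 5.82 times as high in the proliferating IP. The libraries of these groups lay apart for 74.9% of all tested features. The log2 fold change of resting over proliferating IP was -2.56 (SE 0.69, 95% interval -3.94 to -1.17, edgeR adjusted p = 0.0017). Mir877 was the 1 gene of the 5 tested to pass in this comparison, in which 52.1% of all tested features passed, so that 1 of 5 lies under the background. The median of the 5 was -1.15 on the log2 scale against -0.21 over all features. The call for Mir877 held in all 16 alternatives, with log2 values from -3.09 to -1.91 and adjusted p from 4.3e-04 to 0.046. Among the markers of other cell types, endothelial Mir126a alone was lower in the resting IP as well (resting over proliferating IP -3.74, edgeR adjusted p = 2.8e-10). Myeloid Mir223 was higher in the resting IP (4.59, edgeR adjusted p = 3.7e-14), as were erythroid Mir144 (5.58), epithelial Mir200b (4.03) and stromal Mir10b (1.77). Hepatic Mir122 leaned the same way as Mir223 without passing (1.86, edgeR adjusted p = 0.064). The part of these markers in the Mir877 result was not tested.

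In the input Mir877 pointed the same way, with more spread. It had 3 and 23 counts in the resting inputs and 54 and 21 in the proliferating inputs, which gives 8.40 and 56.5 CPM against 152 and 73.7 CPM. The groups did not overlap, as was the case for 78.5% of all tested features, and the resting inputs differed 6.73-fold from each other. The log2 fold change of resting over proliferating input was -1.78 (SE 0.70, 95% interval -3.19 to -0.37, edgeR adjusted p = 0.034), in a comparison where 49.3% of all tested features passed and 1 of the 5 genes did. This call is not stable: it was kept in 6 of 16 alternatives and lost in 10, with adjusted p from 0.0039 to 0.30. Among these it was lost without resting input replicate 1 (-1.06, edgeR adjusted p = 0.30), without proliferating input replicate 1 (-1.13, adjusted p = 0.30) and without replicate 2 of the proliferating input (-2.32, adjusted p = 0.057). Leaving out proliferating IP replicate 1 (-1.57, edgeR adjusted p = 0.11) or proliferating IP replicate 2 (-1.73, adjusted p = 0.088) also lost it, and without resting input replicate 2 the value was -3.61. IP over input did not pass for Mir877: it was -0.92 in resting cells (95% interval -2.38 to 0.54, edgeR adjusted p = 0.35) and -0.14 in proliferating cells (95% interval -1.43 to 1.14, edgeR adjusted p = 0.90). These intervals allow a difference of either sign.

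Mir1981, the most counted of the mirtrons, did not pass the test in any comparison. The resting inputs held 117 and 139 counts and the resting IPs 732 and 308. The proliferating inputs held 175 and 145 counts and the proliferating IPs 223 and 446. The levels were 328 and 342 CPM in the resting inputs and 547 and 413 CPM in the resting IPs. In proliferating cells they were 494 and 509 CPM in the inputs and 326 and 378 CPM in the IPs. Both resting IPs were thus above both resting inputs, while both proliferating IPs were below both proliferating inputs. Of all features tested, 68.0% had the libraries of resting IP and input apart in this way and 61.2% those of proliferating IP and input, so that such a separation is common. IP over input was 0.52 (log2) in resting cells (SE 0.35, 95% interval -0.18 to 1.22, edgeR adjusted p = 0.27) and -0.51 in proliferating cells (SE 0.35, 95% interval -1.21 to 0.20, edgeR adjusted p = 0.30). Neither passed the test.

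The change of the Mir1981 enrichment between the cell states was 1.03 on the log2 scale (SE 0.49, 95% interval 0.03 to 2.02, unadjusted p = 0.043, edgeR adjusted p = 0.16). It passed in 2 of 15 alternatives, with library totals (1.39, edgeR adjusted p = 0.040) and with a minimum count of 30 (1.21, adjusted p = 0.047), and was positive in all 15. Resting over proliferating cells was -0.58 in the input (95% interval -1.30 to 0.13, edgeR adjusted p = 0.16) and 0.44 in the IP (95% interval -0.25 to 1.14, edgeR adjusted p = 0.27). The input difference passed in 3 of 16 alternatives and the IP difference in 2 of 16: that in the IP was called with upper-quartile factors (1.11, edgeR adjusted p = 0.0076), which raise the median of all features to 0.45, and without replicate 2 of the proliferating input (0.87, edgeR adjusted p = 0.029). The replicates of Mir1981 differed by 0.18 on the log2 scale on average over the 4 groups, against a median of 0.53 over the 219 tested features.

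Mir702, the mirtron within Plod3, was seen mainly in proliferating cells, at few counts. The resting inputs held 2 and 0 counts and the resting IPs 0 and 12. The proliferating inputs held 7 and 9 counts and the proliferating IPs 15 and 62. The levels were 19.8 and 31.6 CPM in the proliferating inputs and 22.0 and 52.6 CPM in the proliferating IPs. All 4 were above the highest resting library, at 16.1 CPM. The share of all tested features with such a separation of 4 libraries from 4 was not computed. For 2 libraries against 2, in either direction, it was 78.5% within the input and 74.9% within the IP. With 2 counts in the resting inputs, the ratio of proliferating over resting input was 9.56 (95% exact counting interval 2.25 to 85.7, which covers counting error only), and edgeR's adjusted p was 0.074. In the IP the resting over proliferating log2 fold change was -2.36 (SE 1.10, 95% interval -4.58 to -0.14, edgeR adjusted p = 0.068). Neither difference passed the test, although both had an unadjusted p near 0.038. The size of the IP difference depends on single libraries. It was -1.13 without resting IP replicate 1, which had no count (edgeR adjusted p = 0.48), and -1.32 without proliferating IP replicate 2 (edgeR adjusted p = 0.57). Without resting IP replicate 2, which holds all 12 counts of its group, it was -7.65 (edgeR adjusted p = 0.0028), a fit against a library with no count and no measure of the fold. IP over input in resting cells had a counting ratio of 2.20 (95% exact counting interval 0.489 to 20.2), and in proliferating cells the log2 fold change was 0.56 (95% interval -1.57 to 2.7, edgeR adjusted p = 0.72).

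Mir1224, the mirtron within Vwa5b2, had 0 counts in all 8 libraries. This allows a share of up to 0.000178% of the counts in the deepest library and 0.00141% in the shallowest (3 counts of the total), as far as counting error goes. Mir142, which blood cells are known to express, had no count either, and the strand setting and the treatment of multi-mapped reads in the counting are not known here, so a count of 0 may not bound the abundance of the RNA. Mir1224 was not tested.

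Mir320, which comes from a capped short hairpin, was measured in every library with a spread near the median of all features. The resting inputs held 23 and 38 counts and the resting IPs 192 and 94. The proliferating inputs held 21 and 40 counts and the proliferating IPs 56 and 132. The levels were 64.4 and 93.4 CPM in the resting inputs and 143 and 126 CPM in the resting IPs. In proliferating cells they were 59.3 and 140.4 CPM in the inputs and 82.0 and 112 CPM in the IPs. Both resting IPs were above both resting inputs, groups that lay apart for 68.0% of all tested features, while the proliferating inputs enclosed the proliferating IPs. IP over input was 0.77 (log2) in resting cells (SE 0.53, 95% interval -0.30 to 1.83, edgeR adjusted p = 0.27) and -0.02 in proliferating cells (SE 0.53, 95% interval -1.09 to 1.05, edgeR adjusted p = 0.98). Resting over proliferating cells was -0.32 in the input (95% interval -1.43 to 0.79, edgeR adjusted p = 0.65) and 0.47 in the IP (95% interval -0.55 to 1.49, edgeR adjusted p = 0.43). No comparison of Mir320 passed in the alternatives either, and the sign of the input difference turned with upper-quartile factors (0.055).

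Mir484, the other gene known for a capped hairpin, was near the limit of these libraries. The resting inputs held 9 and 3 counts and the resting IPs 20 and 2. The proliferating inputs held 2 and 1 counts and the proliferating IPs 7 and 36. The levels were 25.2 and 7.37 CPM in the resting inputs and 14.9 and 2.68 CPM in the resting IPs. In proliferating cells they were 5.65 and 3.51 CPM in the inputs and 10.2 and 30.5 CPM in the IPs. The proliferating IPs were above the proliferating inputs, with a counting ratio of 4.92 (95% exact counting interval 1.57 to 24.8), but edgeR, which takes in the spread between libraries, gave an adjusted p of 0.26. The libraries of these groups lay apart for 61.2% of all tested features. In resting cells IP over input was -0.77 on the log2 scale (95% interval -3.04 to 1.49, edgeR adjusted p = 0.63), and without resting input replicate 1 it was 0.44. The change of enrichment between the states was -2.89 (95% interval -6.41 to 0.63, edgeR adjusted p = 0.26). The ratio of resting over proliferating input was 3.35 (95% exact counting interval 0.903 to 18.5).

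**Figure D3:**
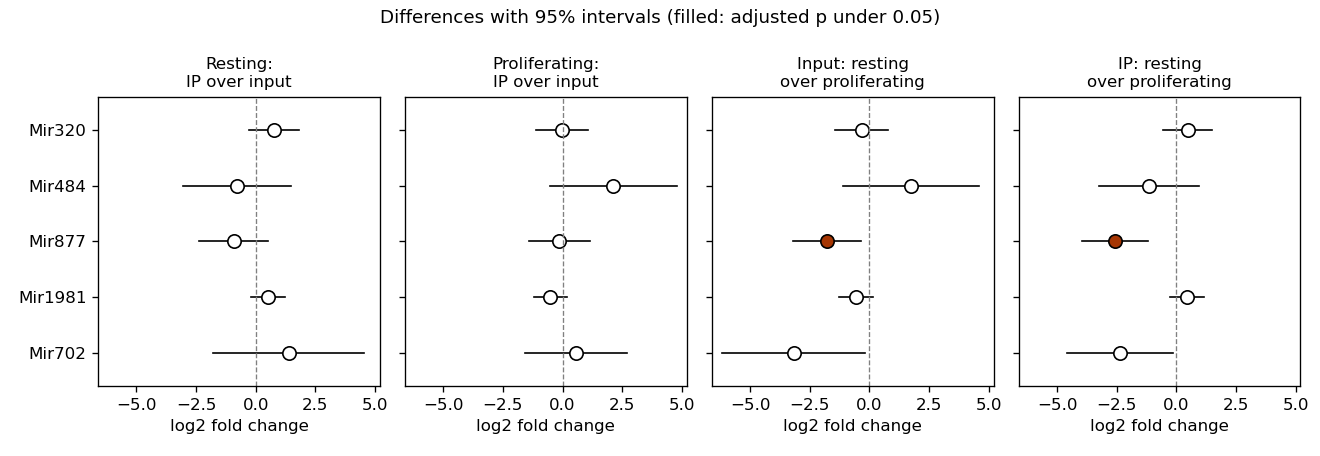
Points show edgeR's log2 fold change and lines its 95% interval for the 5 tested genes in 4 comparisons, with filled points where the adjusted p was under 0.05. Mir877 is filled in both comparisons between the cell states (-1.78 for input, -2.56 for IP), no gene is filled in the comparisons of IP with input, and the intervals of Mir484 and Mir702 are the widest.

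No enrichment or depletion by AGO2 selection passed the test for any of the 5 tested genes in either state. In resting cells 0 of 5 passed, 0 had an unadjusted p under 0.05 and DESeq2 called 0, where 28.8% of all tested features passed in edgeR. In proliferating cells 0 of 5 passed, again with 0 at an unadjusted p under 0.05 and 0 by DESeq2, where 26.9% of all features did; with library totals 1 passed, Mir1981 (-1.12, edgeR adjusted p = 0.010), a scaling that lowers the median of all features from 0.11 to -0.50. The median log2 fold change of IP over input was 0.52 for the 5 genes and -0.05 for all features in resting cells, and -0.02 against 0.11 in proliferating cells. For the change of enrichment between the states, 0 of 5 passed, with 1 at an unadjusted p under 0.05 (Mir1981) and 0 by DESeq2, where 17.4% of all features passed in edgeR.

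The make-up of the group's own counts does not depend on scaling between libraries, and for some genes it lay apart by cell state. Mir1981 gave 76.0% and 68.5% of the group's counts in resting input, 76.2% and 71.1% in resting IP, 67.6% and 67.1% in proliferating input, and 59.3% and 56.5% in proliferating IP libraries. All 4 proliferating libraries had a smaller Mir1981 share than all 4 resting ones, but in the inputs the gap was narrow. It rests there on 68.5% of 203 counts in resting input replicate 2 against 67.6% of 259 in proliferating input replicate 1. The shares add up to a whole, so that one falls when another rises: in the input the level of Mir1981 was 502 ± 10.4 CPM in proliferating and 335 ± 9.79 CPM in resting cells (n = 2), a difference that did not pass (edgeR adjusted p = 0.16). Mir877 gave 1.95% and 11.3% for resting input, 1.77% and 3.93% for resting IP, 20.8% and 9.72% for proliferating input, and 19.9% and 14.4% for proliferating IP. Its share in the proliferating IP was thus 17.2% ± 3.90 against 2.85% ± 1.53 in the resting IP, with the libraries apart, while the inputs overlapped. Mir320 held 20.8% ± 1.22 in the resting IP and 15.8% ± 1.28 in the proliferating IP. These shares were not tested, since 2 libraries against 2 allow no small permutation p. How often such shares lie apart for other features was not computed. In CPM the libraries of the states lay apart for 78.5% of all tested features in the input and 74.9% in the IP, so separation by state is common.

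**Figure D4:**
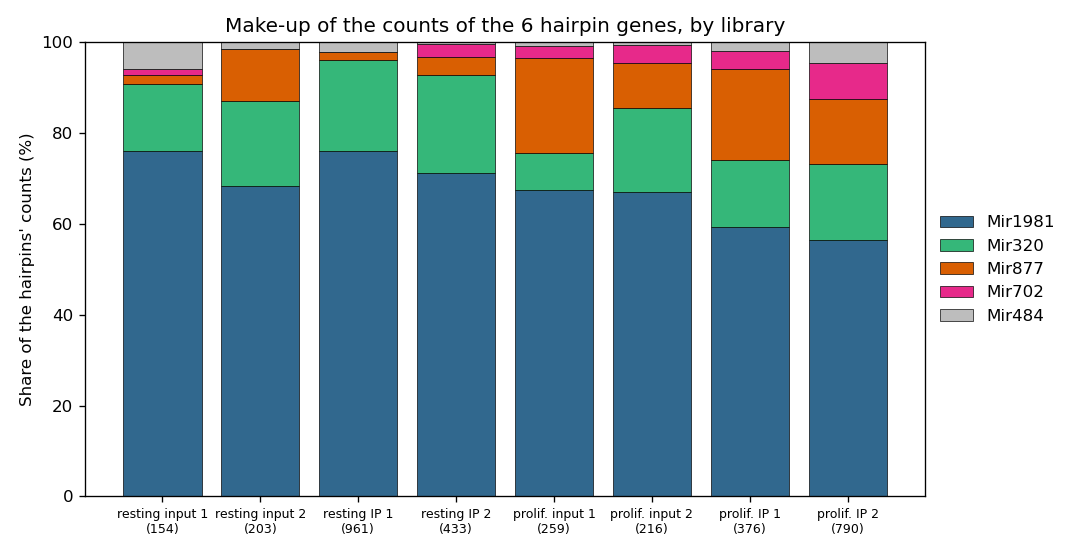
Stacked bars give, for each library, the percent of the counts of the 6 genes that fell on each of the 5 counted ones, with the number of these counts in brackets under each bar. Mir1981 takes 56.5% to 76.2% of every bar, and Mir877 takes 14.4% and 19.9% in the proliferating IPs against 1.77% and 3.93% in the resting IPs.

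The features most like each gene were found by the mean absolute difference of log2 CPM over the 8 libraries, each feature centred on its own mean, among the 212 other named and tested features. Mir1981 was closest to Mir27b (0.21), Mirlet7d (0.25) and Mir185 (0.25), where the median feature was 0.93 away. The nearest to Mir320 were Mir324 (0.29), Mir1981 (0.31) and Mirlet7d (0.33). Neither Mir320 nor Mir1981 passed in any comparison, and this distance is small for any features that change little. Their closeness therefore says nothing about the 2 routes. Mir877 was closest to Mir363 (0.42) and Mir130b (0.50), and Mir8114 followed at 0.55. Mir702 had Mir3076 (0.49), Mir467c (0.52) and Mir96 (0.55) nearest, and Mir484 had Mir350 (0.44), Mir3473d (0.49) and Mir99b (0.49). The libraries share depth and scaling, so these distances describe the 8 libraries alone.

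Other miRNAs with a non-canonical step in their making, not all of which bypass DROSHA, were listed by name for comparison. They were mirtrons or simtrons (Mir1982, Mir1225, Mir1226 and Mir1228) and hairpins from snoRNA or tRNA genes (Mir1839, Mir664 and Mir1983). The AGO2-cleaved Mir451a and Mir486 were listed as well. Of all those listed, 5 matched a feature and 3 were tested. A feature was named only where its exact coordinates gave a single symbol. A listed gene without a match, such as Mir451a, may therefore still have been counted among the unnamed features. Unnamed features held 1.06% of all counts. Mir1983, known to derive from a tRNA gene, was at 203 and 281 CPM in the proliferating inputs and 1044 and 1022 CPM in the proliferating IPs, and it rose there with the IP by 2.10 on the log2 scale (edgeR adjusted p = 5.1e-05). Its change of enrichment between the states was -2.32 (edgeR adjusted p = 0.0044). Mir1839 was higher in resting cells by 1.58 in the input (edgeR adjusted p = 0.0016) and by 2.26 in the IP (edgeR adjusted p = 5.7e-06), and Mir664 fell in the proliferating IP by 1.30 (edgeR adjusted p = 0.022). Of the 3, 0 passed for IP over input in resting cells, 1 rose and 1 fell in proliferating cells, and in each comparison of the states 1 was higher and 1 lower in resting cells. Mir1982 had 31 counts in all and was not tested. Mir486 had 9 counts in resting input replicate 2, 1 in proliferating input replicate 2 and 0 in the others.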

How the data were processed

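Per the labels, a QIAseq miRNA kit and single-end reads were used. The submitters' processing notes name STAR 2.7.9a, SAMtools 1.15 and mm10. The deposited values are raw counts per hairpin, taken from deduplicated alignments per the file headers. For the counter, its strand setting and multi-mapped reads, nothing is given in the sources used here. Features were named by exact coordinates through RefSeq genes of GRCm38.p6, which named 1179 of 2202. The fit used edgeR 4.0.16 in R 4.3.3 (quasi-likelihood test, TMM factors, filterByExpr with a minimum count of 10). It took all 8 libraries, with 2-sided tests, Benjamini-Hochberg over 219 features and a threshold of 0.05. It was also run on simulated data with the same dispersion for all features. That run cannot show how the fit performs with the spread of these libraries. SE is the absolute log2 fold change over the square root of F. Intervals for ratios are exact and cover counting error only. Folding energies came from RNAfold 2.7.2. The libraries of a group differed beyond sampling noise (chi-square over its degrees of freedom at least 8.56). The genes and lists were chosen with earlier results of these data known. Named features are the 6 genes, the 3 nearest to each, neighbouring genes and the comparison list. Alternatives were other scalings (library totals, upper-quartile and RLE factors), filters, DESeq2 1.42.0, only the groups compared, a replicate block and each library left out.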

Additional observations from a re-analysis of the deposited data

Results flagged for a closer look

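Mir1981 was flagged because both resting IP libraries were above both resting inputs while both proliferating IP libraries were below both proliferating inputs. Each separation taken singly is common, with 68.0% of all tested features apart in resting and 61.2% in proliferating cells. The difference of the IP effect between the states, 1.03 on the log2 scale, was tested and did not pass (unadjusted p = 0.043, edgeR adjusted p = 0.16).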

How the results depend on the processing

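Counts of Mir484, Mir702 and the resting Mir877 limit what can be seen, and values from a single count or from a library at 0 swing widely. The counts of the 5 genes called did not change under any alternative for IP over input in resting cells (0). With library totals they became 1 for IP over input in proliferating cells, 2 for resting over proliferating input and 1 for the change of enrichment, which was also 1 with a minimum count of 30. For resting over proliferating input the count was 0 with upper-quartile factors, RLE factors and DESeq2, and from 0 to 1 without single libraries. With a minimum count of 30, and with only the groups compared in the fit, it stayed at 1, but the gene called was Mir1981 in place of Mir877. For resting over proliferating IP it was 2 with upper-quartile factors and with the replicate block, and from 1 to 2 without single libraries. Over all features, the change of enrichment had 38 calls, 22 with upper-quartile factors, 25 with RLE factors and from 11 to 46 without single libraries. IP over input in proliferating cells had 59 calls and from 30 to 63 without single libraries.

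Of the mean levels per gene and group under library totals or upper-quartile factors, 38 moved by 1 SD or less and 10 by more. Signs turned only for differences that did not pass. With the replicate block Mir320 was at 0.015 for IP over input in proliferating cells, Mir702 at -0.046 there with library totals, and Mir320 at 0.055 for resting over proliferating input with upper-quartile factors. Without single libraries the ranges that cross 0 were, for IP over input in resting cells, -2.57 to 0.44 (Mir484), -1.61 to 1.18 (Mir877) and -4.06 to 5.75 (Mir702). For IP over input in proliferating cells they were -0.62 to 0.36 (Mir320), -0.90 to 0.39 (Mir877) and -0.26 to 1.09 (Mir702). For resting over proliferating input the range of Mir320 was -0.82 to 0.28, and for the change of enrichment those of Mir877 and Mir702 were -1.52 to 1.33 and -4.67 to 5.49. Apart from the use of fewer libraries, the cause was not tested.

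The libraries share the numbers HA1 and HA2 in their titles, and the labels do not say whether these are pairs. Deviations of same-numbered libraries had correlations from -0.12 to 0.18 over 219 features. Such values cannot show that an input and an IP of the same number come from separate preparations. The main fit did not use the numbers as pairs. The replicate block sets the same effect of the number in both states, and pairing of IP with input within a state was not fitted. With the replicate block Mir702 passed for resting over proliferating IP (-2.61, edgeR adjusted p = 0.035), and the block changed no other call of the 5 genes.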
